A study of Homo sapiens with 4 samples.

Results

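DAXX was knocked down in QGP1, a human cell line from a pancreatic neuroendocrine tumour, and the RNA was set against that of QGP1 cells given a control siRNA. The comparison uses 2 of the 4 arrays of the series, chosen by their titles, and takes the knockdown value minus the control value at each probe set. The other 2 arrays are the same pair of treatments in NCI-H727, a human bronchial neuroendocrine tumour line, and appear below only beside the QGP1 values. Knockdown cells received siRNA against DAXX by Neon electroporation and control cells received a universal negative control siRNA, each at a final 50 nM. The protocol names 2 DAXX siRNAs and does not say whether they were used together, and the time from electroporation to harvest is not given in the sources used here. The RNA integrity number is stated to be above 7.0 for all samples.

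The labels leave some points of identity unsettled. The description of all 4 samples speaks of ALDH high QGP1 cells, while the protocol mentions no sort, and the source field of the NCI-H727 arrays carries the name QGP1, so the line of each array rests on its title. Each side of the comparison is 1 array. No value below has a replicate error or a p-value, and a difference is a difference between these 2 arrays.

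DAXX is a histone chaperone that, with the chromatin remodeller ATRX, places the histone variant H3.3 into silent chromatin, among other places at telomeres and repeats. It also sits in PML nuclear bodies, binds SUMO-modified proteins and represses transcription factors. DAXX and ATRX are recurrently inactivated in pancreatic neuroendocrine tumours. The question stated for the series concerns tumour suppressor functions of DAXX through H3.3 deposition.

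Values are log2 RMA signals, on which a difference of 1 is a 2-fold difference. A gene is represented by its brightest probe set, judged by the mean of the 2 QGP1 arrays, and it counts as measured where that mean reached 4.78, the 40th percentile of all probe sets, called the filter level below. This left 14468 of 19775 genes. The median difference over these genes was 0.02, and 95% of them lay between -0.46 and 0.52. In all, 78.6% of the genes differed by less than 1.2-fold. The probe sets of a single gene scattered around their gene's mean difference with an SD of 0.20, which measures disagreement between probes within these arrays and not the spread between cultures.

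DAXX itself was checked first, in every array. Its signal in QGP1 went from 8.52 with control siRNA to 6.56 with DAXX siRNA, a difference of -1.96, or 3.9-fold lower. A second DAXX probe set went from 8.18 to 6.03, a difference of -2.14. In NCI-H727 the first probe set read 7.35 in the control and 6.14 in the knockdown, a difference of -1.21. The DAXX signal was thus lower in both arrays labelled as knockdowns and stayed above the filter level in each. Both probe sets carry suffixes (s_at and x_at) that mark probes shared between transcripts or genes.

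At least 2-fold, 42 genes were higher in the DAXX knockdown (0.29% of those measured) and 36 were lower (0.249%). The study's own description gives 81 higher and 96 lower, by a counting rule that is not given in the sources used here. At 1.5-fold the counts were 258 higher (1.78%) and 187 lower (1.29%). A difference of 3-fold or more was found for 6 higher and 8 lower genes. The higher genes started from weak signals, with a median of 5.65 in the control against 7.74 over all measured genes, while the lower genes started from a median of 8.91. In 9 of the 42 higher genes the control signal lay under the filter level, so for these a signal is given in each array and no fold.

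**Figure D1:**
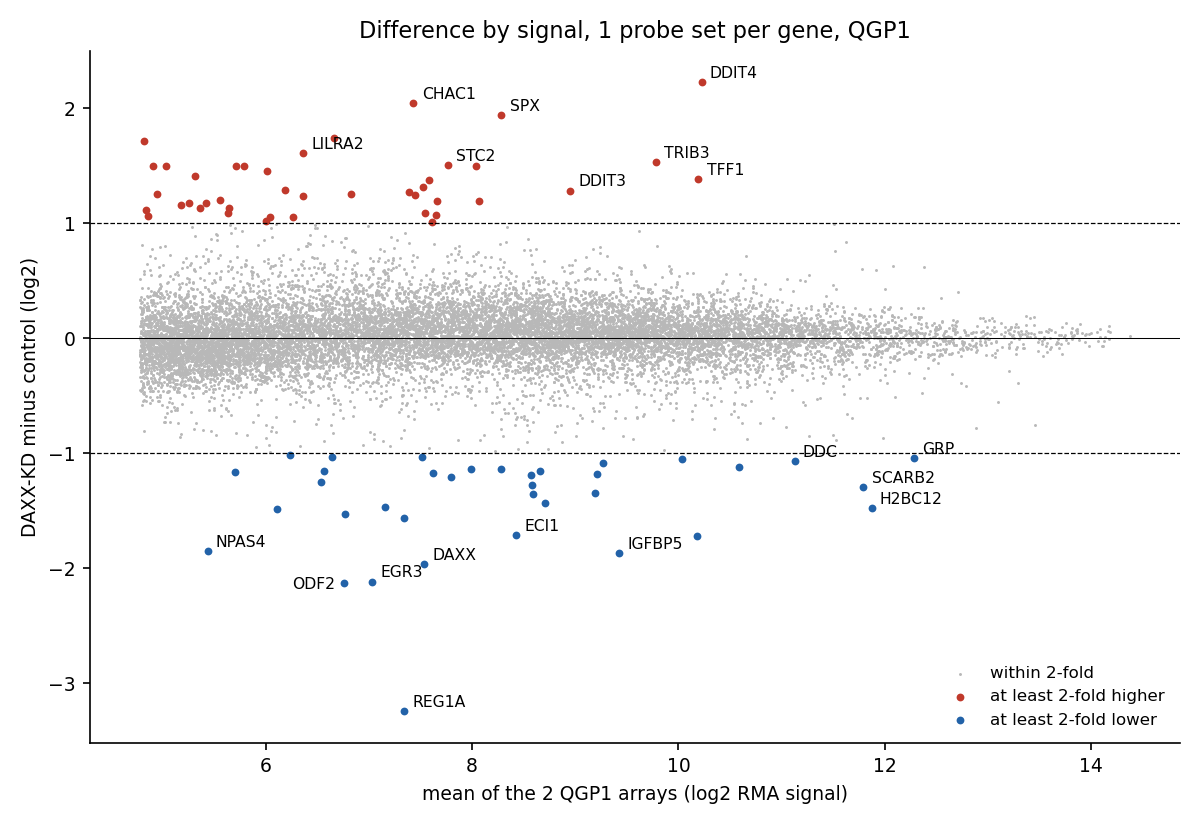
Difference between the DAXX knockdown and control arrays of QGP1 (log2, vertical axis) against the mean signal of the 2 arrays (log2 RMA, horizontal axis), 1 point per measured gene, with genes at least 2-fold higher or lower coloured. Most of the 42 higher genes lie at weak signals, while REG1A at -3.25 and DDIT4 at 2.23 stand at the ends of the scale.

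Of the 42 higher genes, 9 come from the list of the amino acid response driven by ATF4. It has 33 measured members, while 0.29% of all measured genes were at least 2-fold higher. ATF4 is a transcription factor whose mRNA is translated preferentially when eIF2 alpha is phosphorylated, as happens on amino acid shortage, unfolded protein stress, viral RNA or haem deficiency. Its targets hold enzymes of serine, cysteine and asparagine synthesis, further transcription factors, and inhibitors of the growth kinase complex mTORC1. Of the 33 members, 16 were at least 1.5-fold higher and none was lower, against 1.78% and 1.29% of all measured genes. The median difference of the list was 0.50, beside 0.02 for all genes. SPX and STC2 had been put on the list with earlier results of these data known. Without them 7 of 31 members were at least 2-fold higher and 14 of 31 were at least 1.5-fold higher, with a median of 0.40. The other members were also chosen with earlier results known, so neither set of counts is independent of these data.

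Among the transcription factors of the response, ATF4 itself went from 11.61 to 12.20, a difference of 0.59. DDIT3, known as CHOP and tied to cell death under lasting stress, went from 8.31 to 9.60, or 2.43-fold higher. JDP2, a bZIP repressor that pairs with other family members, went from 5.74 to 6.98, or 2.35-fold higher, but its second probe set differed by -0.21. CEBPB, a bZIP partner of ATF4, went from 9.15 to 10.08, a difference of 0.93. The remaining factors were closer to their control values: ATF3 differed by 0.35, CEBPG by 0.22 and ATF5 by 0.01.

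The highest difference of all measured genes was in DDIT4, also called REDD1, which restrains mTORC1 through the TSC complex. It went from 9.11 to 11.34, 4.68-fold higher. SESN2, a leucine-binding inhibitor of mTORC1 through GATOR, went from 7.29 to 8.79, or 2.83-fold higher, and its second probe set from 6.12 to 7.53, a difference of 1.42. On the list of mTORC1 and autophagy regulators these were the 2 of 24 measured members past 1.5-fold, against 1.78% of all measured genes, and both are also on the ATF4 list. Of the 24, 21 had differences above 0, beside 53.5% of all measured genes, and the list median was 0.28. TFEB, the regulator of lysosomal genes, differed by 0.55, and TSC2 by 0.46.

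Members that act back on stress signalling differed from each other. CHAC1, which degrades glutathione, went from 6.41 to 8.45, or 4.13-fold higher. TRIB3, a pseudokinase that binds ATF4 and AKT, went from 9.01 to 10.55, or 2.9-fold higher, and its second probe set differed by 0.16. PPP1R15A, which recruits the phosphatase that reverses eIF2 alpha phosphorylation, differed by 0.08.

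Among the enzymes, ALDH1L2, the mitochondrial 10-formyltetrahydrofolate dehydrogenase, went from 5.28 to 6.74, or 2.74-fold higher. CTH and CBS, the enzymes of transsulfuration, differed by 0.96 and 0.66, the second CTH probe set by 0.86 and the other CBS probe sets by 0.75 and 0.17. ASNS, asparagine synthetase, went from 11.77 to 12.39, a difference of 0.63. PSAT1 of the serine pathway differed by 0.60, while PHGDH ahead of it differed by 0.28 and PSPH after it by -0.22. The mitochondrial folate enzymes MTHFD2 and SHMT2 differed by 0.26 and 0.12. The enzymes of the list therefore ranged from a 2.74-fold higher signal to a slightly lower one.

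Of the secreted members, STC2, a stanniocalcin that blocks the IGFBP protease PAPP-A, went from 7.02 to 8.52, or 2.84-fold higher, with 1.41 at its second probe set. SPX, the precursor of the peptide hormone spexin, went from 7.31 to 9.25, or 3.84-fold higher, with 0.80 at its second. The surface receptor VLDLR differed by 0.61. GDF15, a stress cytokine, stayed near its control value (13.73 and 13.68), and FGF21 differed by -0.31. The lowest member was XPOT, the tRNA exportin, at -0.47.

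Amino acid transporters and tRNA synthetases, which ATF4 also drives, differed little but mostly in the same direction. Of 23 measured members 22 had differences above 0, beside 53.5% of all measured genes, and none reached 1.5-fold. The list median was 0.25. The highest were the transporters SLC43A1 at 0.56, SLC7A11, the cystine importer, at 0.50 and SLC7A5, the leucine importer, at 0.44. IARS1, at -0.05, was the member below 0. Genes of the endoplasmic reticulum, which unfolded protein stress also induces through ATF6 and XBP1, had a list median of -0.12. Of 27 measured chaperone and degradation genes none reached 1.5-fold either. Both counts are to be read against 1.78% of all measured genes higher and 1.29% lower. Which stress, if any, lay behind these values was not tested. The chaperone HSPA5 differed by -0.19, XBP1 by -0.53 and HERPUD1 by 0.39.

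In NCI-H727 the same 33 ATF4 members had a median difference of -0.07, with 1 higher and 4 lower by 1.5-fold or more. DDIT4 differed there by -0.28, TRIB3 by 0.02, SESN2 by -0.40 and CHAC1 by 0.40. DDIT3 went from 8.98 to 8.08 in NCI-H727, a difference of -0.90. The difference between the lines cannot be tested with 1 array per group.

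**Figure D2:**
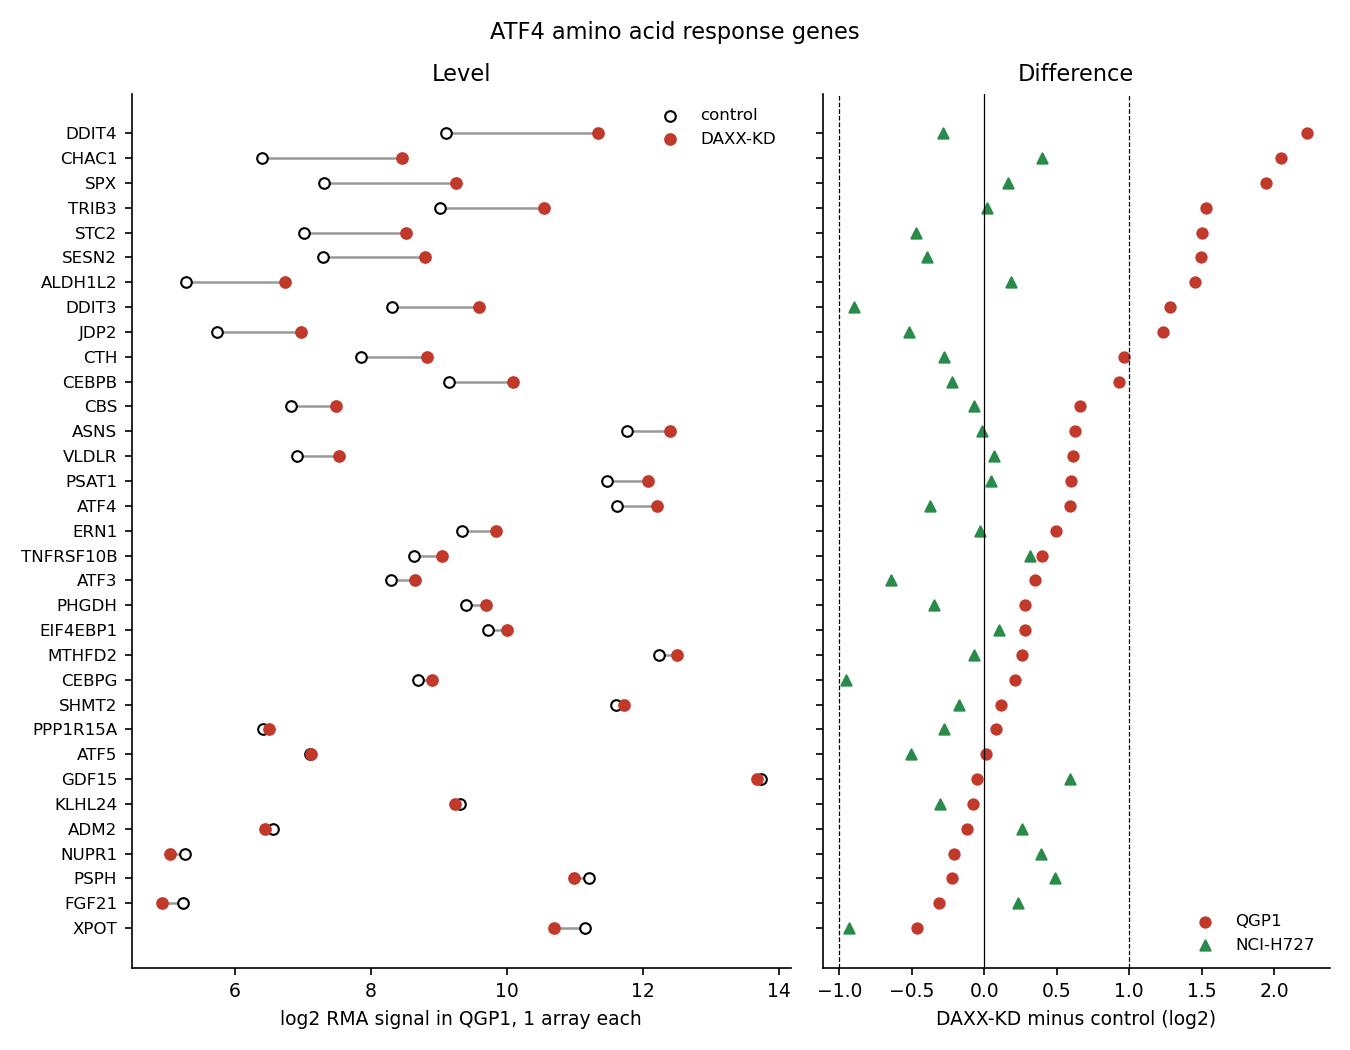
Members of the ATF4 amino acid response list, 1 row per gene, ordered by their difference in QGP1. The left panel gives the log2 RMA signal in the control and DAXX knockdown arrays of QGP1, and the right panel gives the difference in QGP1 and in NCI-H727. DDIT4 is at the top with 2.23 and XPOT at the bottom with -0.47, and 26 of the 33 QGP1 differences lie above 0.

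Promoters of the list were read for TGATGNAA, the letters of the composite element that ATF4 and a C/EBP partner bind, on both strands from 250 bases before to 50 after the RefSeq start (GRCh38.p14). They occurred in 4.46% of the 27305 promoters of the table, in 3.0% of the 11579 promoters of measured genes, and in 6 of the 27 ATF4 list promoters in the table (22.2%). Of the 15 list promoters whose genes were at least 1.5-fold higher, 3 held them. Among all measured genes at least 2-fold higher, 4 of 36 promoters held them. Among those at least 2-fold lower, 3 of 30 promoters did, a similar share. The ATF4 list windows with a match are shown in 60 bases each, 5′ to 3′ on the gene's strand. They let members with high and with low differences be read side by side. Capitals mark the match. In CHAC1 and FGF21 it is read on the opposite strand.
CHAC1, chr15:40953236-40953295, plus strand: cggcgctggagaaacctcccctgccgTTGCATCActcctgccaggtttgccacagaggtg
JDP2, chr14:75427962-75428021, plus strand: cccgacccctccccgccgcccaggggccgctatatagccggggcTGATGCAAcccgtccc
ASNS, chr7:97872443-97872502, minus strand: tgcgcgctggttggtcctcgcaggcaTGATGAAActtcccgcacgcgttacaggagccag
ATF3, chr1:212565190-212565249, plus strand: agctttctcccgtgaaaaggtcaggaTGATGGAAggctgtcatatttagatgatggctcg
CEBPG, chr19:33374045-33374104, plus strand: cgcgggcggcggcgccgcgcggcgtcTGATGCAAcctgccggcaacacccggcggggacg
FGF21, chr19:48755444-48755503, plus strand: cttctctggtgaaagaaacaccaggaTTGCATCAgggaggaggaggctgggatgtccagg
The first 3 genes differed by 2.05, 1.24 and 0.63, and the last 3 by 0.35, 0.22 and -0.31. JDP2 and CEBPG hold the same 8 letters, TGATGCAA, and CHAC1 and FGF21 hold its reverse complement. The same letters thus stood before genes that differed by more than 4-fold and genes that differed by less than 1.5-fold. DDIT4, TRIB3 and SESN2 had no match in this window.

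The 36 lower genes were led by REG1A, a secreted C-type lectin of the exocrine pancreas and islets linked to regeneration. It went from 8.96 to 5.72, a difference of -3.25 or 9.49-fold lower, with 1 probe set. TFF1, a trefoil peptide that protects mucosa, was higher, from 9.50 to 10.88, or 2.6-fold. These were the 2 of 8 measured members of the list of REG, trefoil and secreted pancreatic proteins past 1.5-fold. Of all measured genes 1.78% were higher and 1.29% lower by that much. In NCI-H727 the REG1A probe set differed by 0.20, and TFF1 read 13.72 in both arrays.

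Genes that cells switch on within minutes of a stimulus, the immediate early genes, included 5 of the 36. The list has 37 measured members, while 0.249% of all measured genes were at least 2-fold lower. EGR3 and EGR4 are zinc finger factors of the early growth response family. EGR3 went from 8.09 to 5.97, or 4.34-fold lower, and EGR4 from 7.54 by a difference of -1.53, or 2.89-fold lower. The other 2 EGR4 probe sets differed by -0.61 and -0.10. NPAS4, a neuronal activity factor induced by calcium entry, read 6.37 in the control and 4.51, under the filter level, in the knockdown. ERRFI1, which inhibits the EGF receptor, went from 9.27 to 7.92, or 2.55-fold lower. FOS, a subunit of AP-1, went from 10.56 to 9.51, or 2.07-fold lower.

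FOSB and JUN, further AP-1 subunits, differed by -0.94 and -0.77, and the other 3 JUN probe sets by -0.80, -0.68 and -0.73. In all 7 of 37 measured immediate early genes were at least 1.5-fold lower, against 1.29% of all measured genes, and the list median was -0.15. The members did not differ in 1 direction. PHLDA1 went from 11.02 to 12.01, a difference of 0.99, and its 5 other probe sets ranged from 0.35 to 1.36. EGR1 differed by -0.15, MYC by 0.13, DUSP5 by 0.49 and DUSP6 by 0.43, so the list held higher and lower values. In NCI-H727 its median was 0.11, with 1 member higher and 7 lower by 1.5-fold or more. The cyclic AMP response element TGACGTCA occurred in 3 of 27 promoters of the list (11.1%) against 3.65% for measured genes. It stood before DUSP1, JUND and MAFF, which differed by -0.46, -0.14 and 0.09, and before none of the 6 lower members in the table (EGR3 is not among them).

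IGFBP5, which binds insulin-like growth factors in the matrix, went from 10.36 to 8.49, or 3.65-fold lower, and its 5 other probe sets ranged from -1.41 to -0.12. On the list of the IGF axis, it and STC2 were the 2 of 17 measured members past 1.5-fold, and the list median was 0.01. Of all measured genes 1.78% were higher and 1.29% lower by 1.5-fold or more. CXCL14, a chemokine of epithelia, went from 6.86 to 5.37, or 2.8-fold lower, with -1.48 at its second probe set. ERBB4, the neuregulin receptor, went from 9.81 to 8.72 and GHR, the growth hormone receptor, from 7.15 to 5.99. The other ERBB4 probe sets differed by -0.51 and -0.12. The matrix protein MATN2 was 2.22-fold lower and the metalloproteinase MMP10 2.26-fold lower. APCDD1, an inhibitor of Wnt signalling, went from 7.17 to 5.92, and ANKRD6, which acts in Wnt signalling through Dishevelled, from 6.29 to 5.13, with -0.54 at its second probe set.

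The neuroendocrine identity of the arrays was read from 32 measured granule, synapse and amine genes. The granins and SNAP25, a SNARE protein of exocytosis, were far above the filter level and nearly the same in both arrays: CHGA went from 11.14 to 11.20, CHGB from 12.37 to 12.46, SCG2 from 13.55 to 13.50 and SNAP25 from 11.29 to 11.27. Of islet hormones, SST, somatostatin, was high at 13.83 and went to 13.07, a difference of -0.76, whereas INS and GCG lay under the filter level in both arrays. DDC, the decarboxylase of serotonin and dopamine synthesis, went from 11.66 to 10.59, or 2.1-fold lower, with -0.99 at its second probe set. SLC18A1, the vesicular monoamine transporter, differed by -0.95, and TPH1, the rate-limiting enzyme of serotonin synthesis, by -0.48, which is under 1.5-fold. The other vesicular monoamine transporter, SLC18A2, read higher in the knockdown, at 3.91, but lay under the filter level in both arrays.

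SYT4, a synaptotagmin of dense core vesicles, differed by -0.70. DLL3, a Notch ligand that inhibits the pathway, differed by -0.61 at its representing probe set, but its other 3 differed by 0.07, -0.17 and 0.12. In all 4 of the 32 genes, DLL3 among them, were at least 1.5-fold lower, against 1.29% of all measured genes, and 23 of 32 were below 0, beside 6681 of the 14468 measured genes, with a list median of -0.07. RUNDC3B, put on this list with earlier results known, was higher, from 6.89 to 8.27, or 2.6-fold, with 0.99 at its second probe set. GRP, the bombesin-like peptide, went from 12.80 to 11.76, or 2.06-fold lower. CHRM3, the muscarinic receptor, differed by -1.03 at its representing probe set and by -0.40 to -0.12 at its 4 others. CACNA1A, the P/Q-type calcium channel, differed by -1.56, and its 3 other probe sets by -1.33, -0.69 and 0.06. NAPB, the neuronal SNAP protein that recycles SNARE complexes, was 2.27-fold lower, and PCP4, a calmodulin regulator, 2.76-fold lower.

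Of the replication-dependent histones, 3 probe sets of H2B genes were past 2-fold, while 0.249% of all measured genes were at least 2-fold lower. H2BC12L went from 11.04 to 9.32, H2BC12 from 12.61 to 11.13 and H2BC6 from 9.43 to 7.99, which is 3.3-fold, 2.79-fold and 2.71-fold lower. H2BC9, H2BC5 and the H2A gene H2AC6 differed by -0.96, -0.66 and -0.76. In all 6 of 26 measured histone genes were at least 1.5-fold lower and 1 was higher (H3C2, from 4.52 to 5.24), against 1.29% and 1.78% of all measured genes, with a list median of -0.12. The second H2BC5 probe set differed by -0.26. H2B genes are near-identical in sequence, so their probe sets may share transcripts and are not separate measurements. In NCI-H727 the same 3 probe sets differed by -1.23, -1.40 and -0.82. Of 39 measured cell cycle genes none reached 1.5-fold, to be read against 1.78% of all measured genes higher and 1.29% lower. MKI67, the proliferation antigen, differed by 0.30.

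Of 24 measured genes of the DAXX, ATRX and H3.3 deposition list, DAXX was past 1.5-fold and no other gene was. ATRX went from 9.74 to 9.59, a difference of -0.15. Of the H3.3 genes, H3-3A went from 6.54 to 6.50, and H3-3B had no probe set with 1 gene symbol and was not read. CHAF1A of the replication-coupled chaperone CAF-1 differed by 0.24 and DEK, another H3.3 chaperone, by -0.23. In the PML nuclear body list, PML differed by -0.06. SP100, a constant component of these bodies, went from 7.65 to 8.37, or 1.64-fold higher, and its 3 other probe sets ranged from 0.27 to 0.58. FAS, the death receptor through which DAXX was first described, went from 4.83, just above the filter level, to 6.01, or 2.26-fold higher. Its second probe set went from 4.45, under that level, to 5.25, a difference of 0.80. SP100 and FAS were the 2 of 19 measured members past 1.5-fold. The counts of both lists are to be read against 1.78% of all measured genes higher and 1.29% lower.

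Several of the other higher genes are transcription factors. KLF9, which glucocorticoid and thyroid hormone induce, went from 6.83 to 8.07, but its 3 other probe sets differed by 0.62, 0.11 and -0.29. BHLHE41, a repressor of the circadian clock, went from 7.06 to 8.25, or 2.29-fold higher. HLF, a PAR bZIP factor, went from 5.51 to 6.57, with 0.90 and 0.38 at its other probe sets. ZNF217, an oncogenic zinc finger factor, was 2.1-fold higher. NKX2-2, a factor of endocrine cell fate, went from 4.80, just above the filter level, to 5.93, and LHX8 from 4.97 to 6.47. ISL2 (4.60 to 5.76) and PLAG1 (4.28 to 5.40) started under that level.

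Higher genes outside these groups had varied roles. NALCN, the sodium leak channel, read 4.28 in the control and 5.78 in the knockdown, and KCNU1, a sperm potassium channel, 5.55 and 6.84. CA10, a secreted carbonic anhydrase relative that binds neurexins, went from 6.87 to 8.18, but its second probe set differed by 0.34. SSPN and SNTB1, both of the dystrophin complex, were 2.2-fold and 2.03-fold higher, and the 2 other SSPN probe sets differed by 0.99 and 0.20. SNAP91, a clathrin assembly protein of synapses, went from 5.09 to 6.18. UTS2, the precursor of urotensin II, read 4.61 and 6.02, and RLN2, relaxin, 4.96 and 6.16. ANXA3, an annexin, went from 6.75 to 8.02, or 2.42-fold higher. NIPSNAP3B read 4.16 and 5.66 and ASB4, a SOCS box protein, 4.67 and 5.84. PROSER2 was 2.02-fold higher, and 7 further higher genes have no characterised name, 5 of them not protein coding.

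LILRA2, a leukocyte receptor, and PECAM1, an endothelial and leukocyte adhesion protein, are markers of other cell types. LILRA2 went from 5.56 to 7.17, with 0.36 and 0.88 at its other probe sets, and PECAM1 from 5.74 to 6.80, with 0.55 and -0.19. None of the other 9 measured fibroblast and endothelial markers was at least 1.5-fold higher, and the summed signal of that list was 9.27 in both arrays. Of 9 measured leukocyte markers none reached 1.5-fold, against 1.78% of all measured genes higher and 1.29% lower. Their summed signal was 8.91 in the control and 8.85 in the knockdown. PTPRC and CDH5, defining markers of leukocytes and endothelium, were under the filter level.

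The remaining lower genes include some whose products act in mitochondria or lysosomes. ECI1, an isomerase of unsaturated fatty acid oxidation, went from 9.28 to 7.57, or 3.28-fold lower. ACADSB, which acts in isoleucine breakdown, went from 7.16 to 6.13, but its second probe set differed by 0.06. Of 36 measured genes of mitochondrial fatty acid and branched amino acid breakdown these were the 2 past 1.5-fold, and the list median was 0.02. MRPL45, of the large mitochondrial ribosomal subunit, was 2.43-fold lower, and none of the other 32 measured mitochondrial ribosomal genes reached 1.5-fold. The counts of both mitochondrial lists are to be read against 1.78% of all measured genes higher and 1.29% lower. SCARB2, the lysosomal receptor of glucocerebrosidase, went from 12.44 to 11.14, with -1.59, -0.94 and -0.10 at its other probe sets. ODF2, of the centriolar appendages, went from 7.82 to 5.69, or 4.38-fold lower, with -1.26 at its second probe set. The nucleolar protein URB2, the poly(A) polymerase TENT5C and PROSER1 were 2.31-fold, 2.29-fold and 2.54-fold lower, with -0.36 at the second TENT5C probe set and -0.66 at the second of PROSER1. SH3BGRL was 2.17-fold lower, with -0.34 at its second probe set. ATP9B was 2.02-fold lower, but the 4 other ATP9B probe sets lay between -0.22 and 0.04. The long noncoding RNAs MIAT and DRAIC were each 2.2-fold lower, and each of their other probe sets was below 0, from -1.38 to -0.35 for MIAT and at -0.84 for DRAIC.

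**Figure D3:**
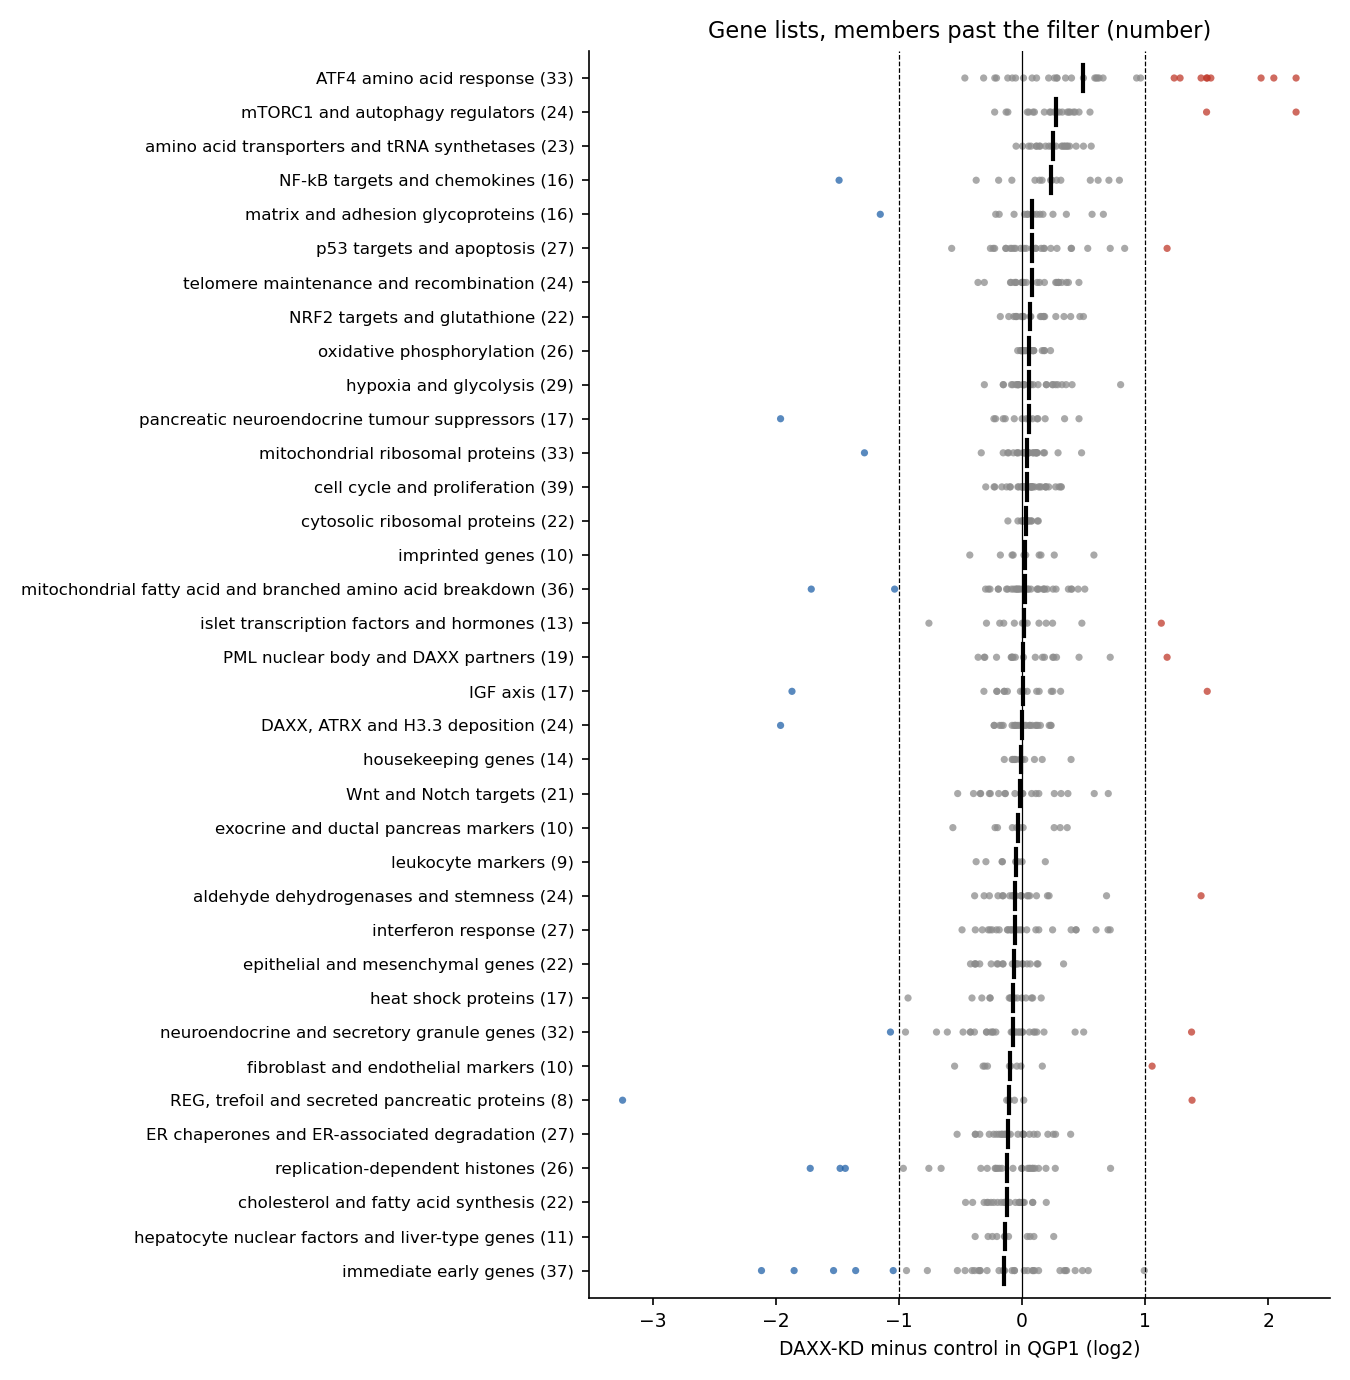
Difference between the DAXX knockdown and control arrays of QGP1 (log2, horizontal axis) for the measured members of 36 gene lists, 1 row per list and 1 point per gene, with the median of each list marked. The ATF4 list has a median of 0.50, while the lists of immediate early genes (-0.15) and endoplasmic reticulum chaperones (-0.12) have medians below 0.

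Other lists held few genes past 1.5-fold, to be read against 1.78% of all measured genes higher and 1.29% lower, and 14 of the 36 held none, housekeeping genes, oxidative phosphorylation, cytosolic ribosomal proteins and telomere maintenance among them. Of 16 measured NF-kB targets and chemokines, CXCL2 at 0.79, LIF at 0.71 and CXCL8 at 0.62 were higher by at least 1.5-fold, with 0.23 at the second CXCL8 probe set. Of 27 measured p53 targets FAS, GADD45A at 0.83 and TP53INP1 at 0.72 were, although a second TP53INP1 probe set differed by -0.42. Of 27 interferon response genes SP100, IFIH1 at 0.70 and IFIT3 at 0.60 were, around a list median of -0.06, but the second IFIT3 probe set differed by -0.05. VEGFA at 0.80 was the 1 of 29 hypoxia and glycolysis genes, with its 3 other probe sets between 0.00 and 0.70. KIT, the stem cell factor receptor, at 0.69 joined ALDH1L2 among 24 aldehyde dehydrogenase and stemness genes. Among 21 Wnt and Notch genes NOTCH1 at 0.70 and HEY2 at 0.59 were past 1.5-fold, but their second probe sets differed by 0.11 and -0.14. NID1, a matrix glycoprotein, differed by 0.66 at its representing probe set and by -0.20 and -0.02 at its others. DNAJB4, at -0.93 with -0.62 at its second probe set, was the 1 lower heat shock gene of 17. Cholesterol and fatty acid synthesis genes had 16 of 22 differences below 0, with a median of -0.12 and none past 1.5-fold.

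Probe sets of the same gene gave a check that does not need a second array, though not one on the cultures. Of the 42 higher genes 27 had a single measured probe set. In 9 of the other 15 all were higher and a second probe set was at least 1.5-fold higher. In 2 all were higher with no second at 1.5-fold. In 4 (KLF9, JDP2, NUP58 and PECAM1) at least 1 differed in the opposite direction, although KLF9 also had a second at 0.62. Of the 36 lower genes 18 had a single measured probe set. In 10 of the other 18 all were lower and a second was at least 1.5-fold lower. In 5 all were lower with no second at 1.5-fold. In 3 (CACNA1A, ACADSB and ATP9B) at least 1 was above 0, although CACNA1A also had others at -1.33 and -0.69. A second probe set past 2-fold was found for STC2 and SESN2 among the higher genes and for 7 of the lower ones. The disagreement within genes was larger at weak signals, with a root mean square deviation of 0.190 for probe sets between 4.78 and 5.86 and of 0.124 for those above 8.89.

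**Figure D4:**
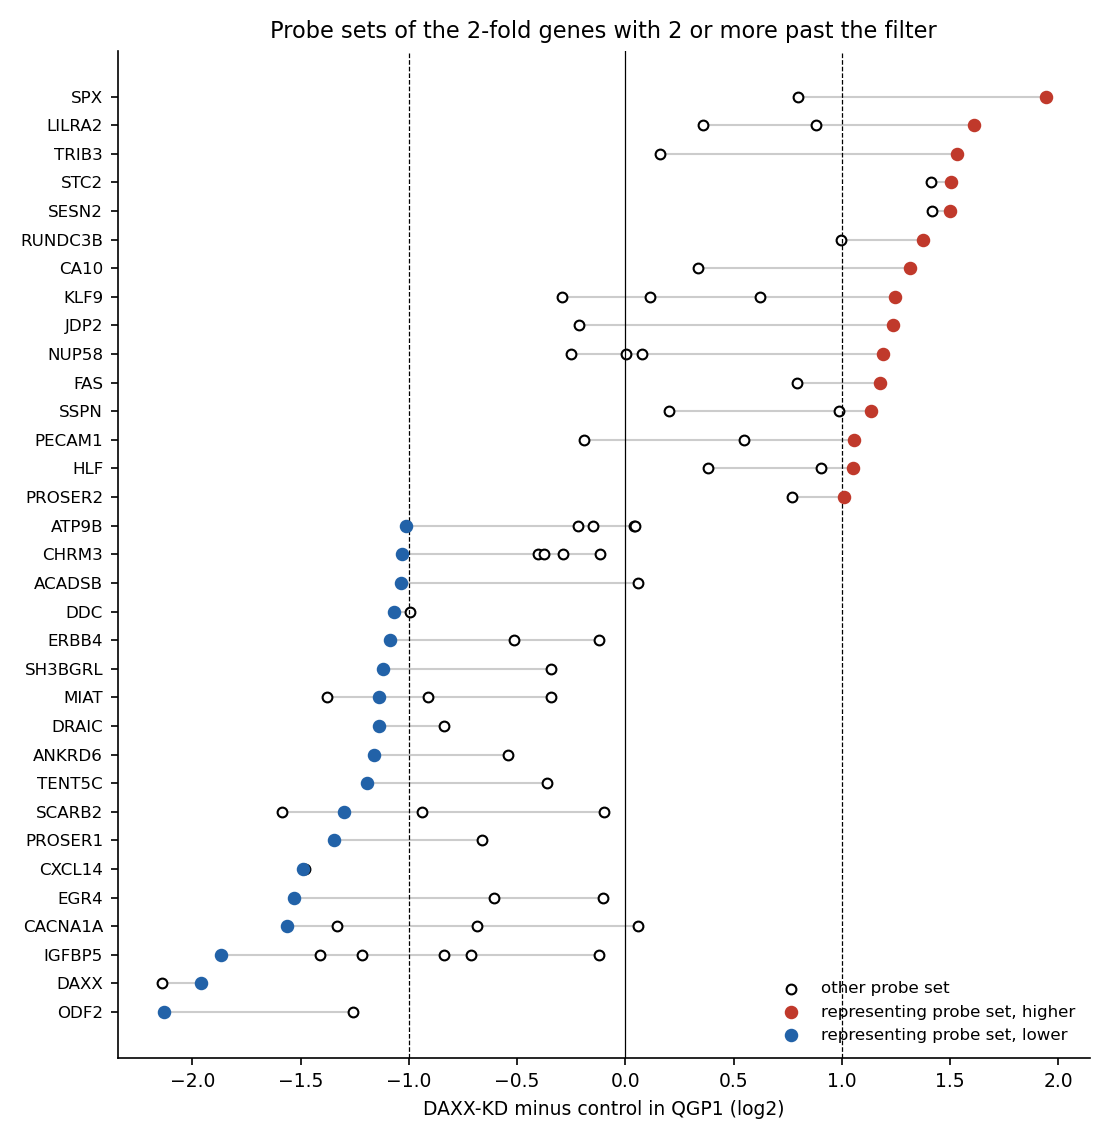
Differences between the DAXX knockdown and control arrays of QGP1 (log2, horizontal axis) at every measured probe set of the 33 genes past 2-fold that have more than 1, 1 row per gene, with the representing probe set marked. STC2, SESN2 and DAXX have probe sets close to each other, while NUP58 and ATP9B have 1 probe set past 2-fold and others between -0.25 and 0.08.

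The genes next to the 2-fold line had similar values on either side. PROSER2 at 1.01 and SNTB1 at 1.02 lay just inside on the higher side, and PHLDA1 at 0.99 and CTH at 0.96 just outside. On the lower side ATP9B at -1.02 and CHRM3 at -1.03 lay inside, and the transcription factor MAF at -0.99 and H2BC9 at -0.96 outside.

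The 2 lines were set side by side at the same probe sets. Of the 42 genes higher in QGP1, 3 were at least 1.5-fold higher in NCI-H727, where 1.44% of the measured genes were, and 37 differed there by less than 1.5-fold. For 21 of the 42, both NCI-H727 arrays were under the filter level. NUP58, a nucleoporin, was higher in both, 2.28-fold in QGP1 and 3.89-fold in NCI-H727, but its other probe sets in QGP1 differed by 0.01, 0.08 and -0.25. PLAG1 differed by 0.70 in NCI-H727. DDIT3 and SNTB1 were at least 1.5-fold lower there.

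Of the 36 genes lower in QGP1, 25 were at least 1.5-fold lower in NCI-H727 and 18 at least 2-fold lower, where 5.19% of the measured genes were at least 1.5-fold lower. ECI1 differed by -1.71 in QGP1 and by -4.02 in NCI-H727, ODF2 by -2.13 and -2.90, ERRFI1 by -1.35 and -2.40, PROSER1 by -1.35 and -2.19, and MRPL45 by -1.28 and -2.20. The same siRNA reagents are named for both lines, and their part in these values was not tested. None of the 36 was at least 1.5-fold higher in NCI-H727. The other 11 differed by less than 1.5-fold, 7 of them with both NCI-H727 arrays under the filter level. REG1A at 0.20 and DRAIC at -0.25 had signal in both NCI-H727 arrays. IGFBP5 differed there by -0.31 at its representing probe set, but by -1.40 and -0.78 at 2 of its other probe sets. CXCL14 read 4.71, under the filter level, in the NCI-H727 control and 5.09 in the knockdown, and its second probe set was under that level in both.

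**Figure D5:**
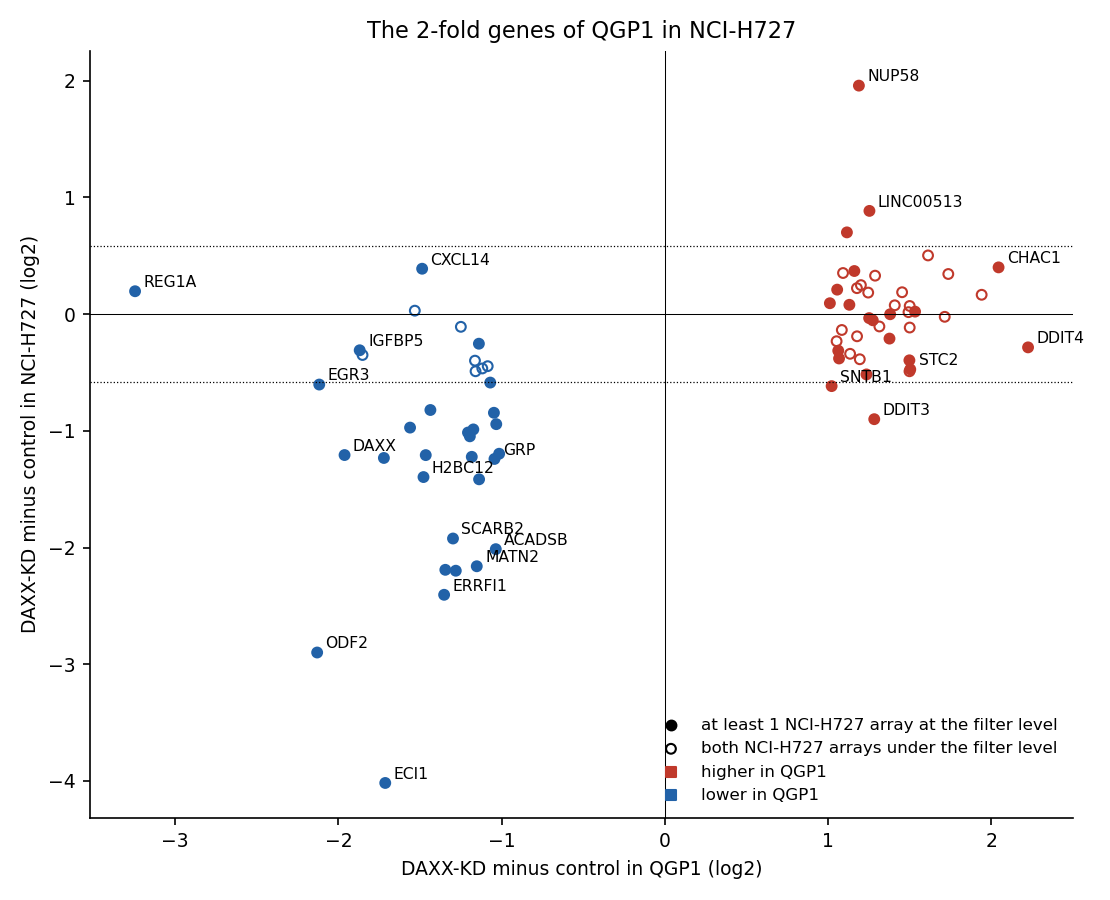
Difference between DAXX knockdown and control in NCI-H727 (log2, vertical axis) against the difference in QGP1 (log2, horizontal axis) for the 78 genes past 2-fold in QGP1, with open points where both NCI-H727 arrays are under the filter level and dotted lines at 1.5-fold. On the lower side of QGP1, 25 of 36 genes lie under the lower dotted line, and on the higher side 3 of 42 lie over the upper one.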

How the data were processed

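The 4 samples were hybridised to 3′ expression arrays of 54613 probe sets. The deposited values are log2 signals made by the authors with RMA (background correction, quantile normalization and probe summary) using affy 1.40.0 and R 3.0.3; the submitters' processing notes name these tools, and RMA's steps are given as background. Scanner files were not used here. Array medians lay between 5.31 and 5.36. Samples were grouped by title.

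Of the probe sets, 41091 had 1 gene symbol, 1801 several and 11721 none in the platform annotation, and only the first were named. 41037 of them matched RefSeq by gene identifier. Knockdown minus control was taken without any test (Python 3.11.15, pandas 2.3.3, numpy 2.4.6, statsmodels 0.14.6, matplotlib 3.10.9), with steps tested on simulated data. With 1 array per group, the number of arrays limits the precision.

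Named genes are DAXX, the 30 largest differences in each direction past 2-fold, those past 2-fold whose probe sets agree at 1.5-fold or disagree in sign, and list members past 1.5-fold (in lists with none, the 2 largest). Other list members are named as values, chosen after they were seen. Genes without a characterised name were counted only. The members and lists were chosen with earlier results of these data known. Alternatives were other choices of probe set, filter and scaling.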

Additional observations from a re-analysis of the deposited data

Results flagged for a closer look

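DDIT3 and SNTB1 differed in opposite directions in the 2 lines, by at least 1.5-fold in each. DDIT3 was 1.28 higher in the QGP1 knockdown (8.31 to 9.60) and differed by -0.90 in NCI-H727 (8.98 to 8.08), which puts the lines 2.18 apart on the log2 scale. SNTB1, a syntrophin, was 1.02 higher in QGP1 (5.49 to 6.51) and differed by -0.62 in NCI-H727 (8.75 to 8.13), which puts them 1.64 apart. The difference between the lines was not tested, since each group is 1 array.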

How the results depend on the processing

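No paired analysis was possible because each group is 1 array, and no array could be left out. The counts of 42 higher and 36 lower genes became 26 higher with the filter at the 60th percentile, and 79 higher and 88 lower when every probe set was counted with no filter. Over the other settings (highest mean over all 4 arrays, mean of a gene's probe sets, no suffixed probe sets, no filter, both arrays over the filter level, lowess or quantile scaling) they ranged from 31 to 53 higher and 24 to 40 lower. The genes behind the counts changed too. With the highest mean over all 4 arrays, 28 of the 38 higher and 31 of the 34 lower genes were among the 42 and 36. The DAXX difference in QGP1 ranged from -1.96 to -2.05, with no value without suffixed probe sets. CACNA1A turned to 0.059 with the highest mean over 4 arrays and HEY2 to -0.14 without suffixed probe sets. When probe sets were averaged, 31 of 109 named genes moved by more than the probe set SD; the filter settings keep the same probe set and could not move a value. Of 289 list medians 283 moved by less than 0.1. The liver-type list turned to 0.025 with no filter. Without suffixed probe sets, heat shock proteins moved to -0.18, epithelial and mesenchymal genes to -0.20 and Wnt and Notch genes to -0.14. At the 60th percentile the islet list moved to 0.14 and the histones to -0.50. Without RUNDC3B the neuroendocrine list has a median of -0.08 over 31 genes. The reduced ATF4 and neuroendocrine lists were chosen after seeing the data.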

Other observations

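Some genes under 2-fold were past 1.5-fold at several probe sets. Of the 7147 genes with 2 or more measured probe sets, 48 had at least 2 probe sets 1.5-fold higher, 10 of these genes past 2-fold. In 49 of the 7147 at least 2 were 1.5-fold lower, 11 of these genes past 2-fold. The representing probe set was not always among them. It differed by 0.01 in STXBP5, counted as higher, and by 0.18 in HSD17B14, counted as lower. Among the higher ones, TXNIP, the thioredoxin inhibitor that glucose induces, differed by 0.75, 0.64 and 0.88 at its 3 probe sets. CREBRF, a regulator of energy storage, differed by 0.76, 0.89, 0.57, 0.81 and 0.14. CAV2, a caveolin, differed by 0.89 and 0.94, and LATS2, a Hippo pathway kinase, by 0.81 and 0.90. PDK4, which inhibits pyruvate dehydrogenase, differed by 0.62 and 0.98 at 2 probe sets and by 0.02 at the third.

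Among the lower ones, RGS4, which shortens G protein signals, differed by -0.78, -1.16 and -0.71. GMPS, of guanine nucleotide synthesis, differed by -0.85, -0.95 and -0.99, and by -3.20 in NCI-H727 at the first. WNT5A, a ligand of noncanonical Wnt signalling, differed by -0.69 and -0.83. STMN2, a neuronal tubulin regulator, differed by -0.63 and -0.64, and the RNA helicase DDX21 by -0.84 and -0.79. These examples were chosen after their values were seen.

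For 10 genes not past 2-fold at the representing probe set, another probe set was at least 2-fold higher. For 16 such genes another probe set was at least 2-fold lower. PAX6, an islet and eye factor, went from 5.63 to 7.29 at such a probe set and differed by 0.14 at the representing one. SARS1, seryl-tRNA synthetase, differed by 1.26 and 0.33 in the same way, CGA, the common subunit of glycoprotein hormones, by -1.77 and 0.40, and the peroxiredoxin PRDX6 by -1.25 and 0.05. Past the same filter, 2 probe sets with no symbol or several were at least 2-fold higher and 15 lower; these are unnamed here. A further 15 genes with a mean under the filter level differed by at least 1 on the log2 scale, 11 of them higher. INHBE, an activin subunit on the ATF4 list, was the highest of these, with 3.91 in the control and 5.62 in the knockdown.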
